A study of Mus musculus with 4 samples.

Results

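The type I interferon-stimulated genes examined here are 41 mouse genes, taken by symbol from a list of 43 among the 32285 genes counted in each library. The symbols Mx1 and Mx2 had no row under those names and were not analysed here. The members comprise 4 genes of the IFIT family, 9 genes of the ISG15 and ubiquitin system, 3 transcription factors, 11 nucleic acid sensors and OAS enzymes, 10 other antiviral effectors, 3 Schlafen genes and the chemokine gene Cxcl10. They were measured in T cells from subcutaneous tumors of wild-type C57BL/6J mice, seeded with Tsc2-deficient mouse kidney tumor cells (105K). The tumor cells expressed 1 of 2 hairpin constructs: sh-NC, the control hairpin (2 libraries, called control), or sh-B7-H3 (1), which targets Cd276 and so the checkpoint protein B7-H3 (2 libraries, called knockdown). Live CD3+ cells were sorted from pools of 80 tumors per group and their RNA and surface tags were counted together by CITE-seq with droplet 3′ chemistry. The comparison asks how loss of B7-H3 on tumor cells bears on the interferon-stimulated genes of the T cells in the same tumors.

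The hairpin acts in tumor cells and not in the sorted T cells, so its effect on Cd276 cannot be checked here; the 4 libraries held 9 to 11 Cd276 UMIs each. Each group is 1 pool of tumors and 1 hairpin. Per the labels its libraries are duplicate lanes, while the study's text also calls them independent samples, so every p-value below covers the spread between these libraries, which may be technical, and not that between mice.

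Type I interferons bind the receptor chains IFNAR1 and IFNAR2, whose kinases JAK1 and TYK2 pass the signal on to the complex ISGF3. This complex, which contains STAT2 and IRF9, binds the interferon-stimulated response element and switches on genes that detect foreign nucleic acid, block viral replication and, through USP18 and SOCS proteins, damp the signal again. In tumors, type I interferon is known for its support of T cell priming, and long exposure to it is known to accompany T cell exhaustion.

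The response element was looked for as GAAA, 2 bases of any kind and GAAA again, on both strands (overlapping matches counted), in the 250 bases before the start of each gene (RefSeq promoters, GRCm38.p6). It was found in 16 of the 33 members with a promoter sequence (48.5%), and in 936 of all 27025 promoters (3.46%). The 30-base windows below are those of members that the results turn on, read 5′ to 3′ on the strand of the gene with the matches in capitals (overlapping matches run together). A match describes the sequence and is no evidence of binding in these cells.
Ifit1, chr19:34640785-34640814, plus strand: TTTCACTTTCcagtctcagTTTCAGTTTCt
Ifit3, chr19:34583397-34583426, plus strand: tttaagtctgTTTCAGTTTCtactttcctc
Ifit3b, chr19:34607793-34607822, plus strand: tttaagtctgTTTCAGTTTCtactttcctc
Isg15, chr4:156200871-156200900, minus strand: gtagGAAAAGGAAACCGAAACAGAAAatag
Rsad2, chr12:26456553-26456582, minus strand: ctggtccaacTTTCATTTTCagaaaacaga
Bst2, chr8:71537580-71537609, minus strand: attccagGAAAATGAAACTGAAAggctgca
Cxcl10, chr5:92349083-92349112, minus strand: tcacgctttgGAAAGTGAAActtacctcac
Isg15 held 3 overlapping matches and Bst2 held 2. The window of Ifit3 and that of Ifit3b carried the same 30 letters; these genes are near-identical neighbors, so how their reads were divided is uncertain. The 4 IFIT genes lie in 1 cluster on chromosome 19, and Rsad2 and Cmpk2 lie next to each other on chromosome 12.

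The libraries held 79224898 to 132820909 RNA UMIs, and 3302 to 6818 cells per library passed the limits of 200 to 3000 genes, at most 5% mitochondrial UMIs and the removal of likely doublets. T cells were classed by their own RNA as Cd4, Cd8 or Foxp3 (regulatory) cells, and each class was split at 20 UMIs of Ccl5, a chemokine gene of effector T cells. Between 2376 and 5077 cells per library were classed. The mix of classes differed between the groups: Ccl5-high Cd8 cells made up 9.19% of classed control cells on average and 32.8% of classed knockdown cells, and Ccl5-low Cd8 cells 48.2% and 20.3%. Ccl5-high Cd4 cells made up 3.13% and 19.2%, and Ccl5-low Cd4 cells 35.1% and 21.8%. Ccl5-low Foxp3 cells were 4.24% and 5.17%, and Ccl5-high Foxp3 cells numbered 10 and 10 in control and 17 and 25 in knockdown libraries, under the minimum of 50 per library for a test. Levels are given as CPM, a gene's UMIs scaled to a common total of all RNA UMIs of that class in that library. The 5 T cell markers summed to 4275 to 10783 CPM in the tested classes, and the NK markers to at most 3.51 CPM. The sum of the 5 naive markers (Ccr7, Lef1, Tcf7, S1pr1, Klf2) was lower in knockdown libraries within each tested class, from a mean of 1523 to 1232 CPM in Ccl5-low Cd4 cells and from 344 to 109 CPM in Ccl5-high Cd8 cells, while 3 of 4 effector genes were called higher in both Ccl5-low classes of Cd4 and Cd8 cells, with a sum of 57.7 against 430.4 CPM in Cd4 and of 564 against 689 CPM in Cd8 cells. Free RNA, taken from barcodes with under 100 UMIs, held 611 and 640 CPM of these effector genes in control and 1602 and 1577 CPM in knockdown libraries, above both classes in every library, so the differences in the effector genes of these classes cannot be told from background. Of all genes 3.65% were called higher in Ccl5-low Cd4 and 2.1% in Ccl5-low Cd8 cells. Of the 4 effector genes 0 were called higher in Ccl5-high cells, and 2 lower in Cd4 and 1 in Cd8 cells (0.943% and 2.39% of all genes). Genes of regulatory T cells were called higher for 3 of 3 tested in Ccl5-low Cd4 and 2 of 3 in Ccl5-low Cd8 cells. The naive and regulatory genes were not set beside free RNA here. Of the 6 genes of dissociation stress, 2 were called lower in Ccl5-low Cd4, 3 in Ccl5-high Cd4, 3 in Ccl5-low Cd8 and 1 in Ccl5-high Cd8 cells, with a sum of 630.2 against 384 CPM in Ccl5-low Cd8 cells; in Foxp3 cells 1 was called higher and 0 lower, with 4 of 6 positive. The part of these differences in the results below was not tested.

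The members spanned a wide range of levels. Over all classed cells Ifi27l2a, which encodes a small interferon-induced protein, was highest, with 587 and 551 CPM in control and 889 and 840 CPM in knockdown libraries. Ifi203, of the DNA-sensing p200 family, followed with 276, 271, 312 and 298 CPM in the same order of libraries. Bst2, which encodes the virion-retaining surface protein tetherin (CD317), had 196, 180, 161 and 155 CPM. Below these stood Slfn1 (mean 117 CPM) and Isg15 (mean 94.4 CPM). At the low end were Oas2 (1.31 CPM) and Ifi44 (1.15 CPM). In free RNA the 41 members summed to 2507 to 2630 CPM, close to the 2390 to 2830 CPM of classed cells.

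Before the knockdown is compared, the state of the cells already separated the members. Among Cd8 cells, 20 of the 39 members tested were higher and 3 lower in Ccl5-high than in Ccl5-low cells (edgeR, adjusted p under 0.05 and at least 1.5-fold, library as a term), where 16.1% of all genes were called higher and 14.9% lower. The median of the members' log2 differences was 0.63, against 0.0042 over all genes tested. All 4 IFIT genes were higher: Ifit1 by 1.59 ± 0.10 (log2 difference ± SE), Ifit2 by 0.96 ± 0.14, Ifit3 by 1.85 ± 0.17 and Ifit3b by 2.09 ± 0.19. So were the radical-SAM antiviral enzyme gene Rsad2 (3.19 ± 0.21), the exonuclease gene Isg20 (2.99 ± 0.07), Cxcl10 (2.48 ± 0.35) and Stat2 (1.01 ± 0.11). The 3 lower ones were Slfn5, Oasl1 and Oasl2.

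Among Cd4 cells 10 members were higher and 6 lower of 39 tested, near the 17.8% and 17.3% of all genes, and the median was 0.07. The counts are thus no result about the members, and the difference from Cd8 cells was not tested. Rsad2 (2.57 ± 0.34), Isg20 (1.89 ± 0.10) and Eif2ak2, the kinase gene PKR (1.44 ± 0.13), rose with Ccl5, and all 3 Schlafen genes fell, Slfn5 by 3.77 ± 0.19, Slfn1 by 2.08 ± 0.11 and Slfn8 by 0.75 ± 0.09. Schlafen genes are known as regulators of T cell growth and quiescence. These values rest on trimmed-mean scaling, which moved the high-minus-low difference by 0.32 in Cd4 and 0.33 in Cd8 cells on the log2 scale against totals alone, so each is relative to that shift.

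In Ccl5-low Cd4 cells, 8 members were called lower in tumors with the Cd276 hairpin. This count and that with no fold limit include Rsad2, which entered the test through the control libraries only. Without it 7 fell. Of 41 tested, 8 fell and 0 rose (edgeR, adjusted p under 0.05 and at least 1.5-fold), where 0.635% of all genes were called lower and 3.65% higher; with no limit on the fold, 19 were lower and 2 higher, against 5.26% and 6.55% of all genes. The median log2 difference of the members was −0.34, against 0.0031 over all genes, and 35 of 41 were negative. Ifit1, whose protein binds foreign RNA ends, stood at 42.6 and 38.0 CPM in control and at 12.2 and 20.8 CPM in knockdown libraries. Both control values lay well above both knockdown values, a log2 difference of −1.23 ± 0.14 (edgeR adjusted p = 4.66e-08). Ifit3, a partner of IFIT1, had 22.3 and 18.7 CPM against 9.12 and 8.40 CPM, again without overlap (−1.22 ± 0.17, edgeR adjusted p = 2.27e-06).

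Of the 9 members of the ISG15 and ubiquitin system, 2 fell in these cells and 7 were not called (median −0.31). Isg15, a ubiquitin-like modifier, fell from 85.5 and 77.7 CPM to 54.7 and 41.1 CPM (−0.78 ± 0.09, edgeR adjusted p = 5.92e-08). Usp18, which removes ISG15 and blocks the receptor, fell from 19.5 and 17.3 CPM to 6.36 and 9.24 CPM (−1.19 ± 0.18, edgeR adjusted p = 8.71e-06). For both genes the groups stood apart, but free RNA held 25.9 and 31.4 CPM of Usp18 in control and 20.4 and 18.0 CPM in knockdown libraries. That was above the class in every library and moved the same way, so the difference of Usp18 cannot be told from background. Ifit3, Ifit3b and Rsad2 too were higher in free RNA than in these cells in every library, with free RNA ratios of 0.976, 0.937 and 1.17. Rsad2 was counted 60 and 58 times in control and 2 and 3 times in knockdown libraries, that is 4.15 and 4.55 CPM against 0.553 and 0.630 CPM. It entered the test through the control libraries only, since both knockdown values lay under the filter on low counts, so its call is no support and 7 members fell without it. Ifit3b (−1.35 ± 0.31), Oasl2 (−1.05 ± 0.26) and Cxcl10 (−1.44 ± 0.32) complete the 8. Myeloid markers summed to 111 and 79.8 CPM in control and 179 and 108 CPM in knockdown libraries, and without cells holding 5 or more myeloid UMIs the count was 8 as well.

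In Ccl5-high Cd4 cells, 5 members fell and 1 rose of 35 tested, where 0.943% of all genes were called lower and 1.02% higher. The median was −0.35, against 0.0048 over all genes, and 29 of 35 were negative. Isg15 had 100.1 and 98.8 CPM in control and 50.2 and 47.0 CPM in knockdown libraries. The difference of −0.98 ± 0.14 left no overlap between the groups (edgeR adjusted p = 1.02e-06). Ifit3 went from 44.0 and 43.1 CPM to 21.9 and 14.7 CPM (−1.22 ± 0.22, edgeR adjusted p = 2.19e-04). Rsad2 had 44.0 and 14.7 CPM in control and 10.5 and 6.85 CPM in knockdown libraries (−1.72 ± 0.33, edgeR adjusted p = 3.80e-04), so that control library 1 stood far above the other 3. Slfn1 (−0.86 ± 0.18) and Ifit1 (−0.66 ± 0.20) were the other called decreases, and the increase was that of Cxcl10. Slfn1 was higher in free RNA than in these cells in every library. Free RNA moved the same way, 153 and 144 CPM in control and 113 and 111 CPM in knockdown libraries, so the difference of Slfn1 cannot be told from background. DESeq2 called 0 members in this class, with 9 at an unadjusted p under 0.05. With 145 to 149 control cells this count moved most with single libraries: 3 without control library 1, 11 without control library 2 and 3 without knockdown library 2.

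Ccl5-high Cd8 cells carried the highest mean levels of the IFIT genes, Isg15 and Cxcl10 among the tested classes of the control libraries, and here too 8 members were lower with the knockdown. Of 39 tested, 8 fell and 0 rose, where 2.39% of all genes were called lower and 2.2% higher, and the median was −0.22 against 0.00019 over all genes. Ifit3 had 179 and 129 CPM in control and 72.5 and 77.5 CPM in knockdown libraries. The groups did not overlap, with a log2 difference of −1.01 ± 0.10 (edgeR adjusted p = 1.43e-08). Isg15 went from 304 and 244 CPM to 165 and 175 CPM (−0.66 ± 0.07, edgeR adjusted p = 6.48e-08). Ifit3b fell from 36.5 and 33.3 CPM to 16 and 16.4 CPM (−1.08 ± 0.15, edgeR adjusted p = 4.49e-06).

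Control library 1 was above control library 2 for each of these 3 genes, and without it the count in Ccl5-high Cd8 cells was 5. Oas3, one of the synthetases whose product activates RNase L, fell from 31.9 and 23.7 CPM to 12.7 and 13.2 CPM (−1.07 ± 0.17, edgeR adjusted p = 5.82e-05). Slfn5 fell from 11.6 and 14.7 CPM to 6.43 and 6.30 CPM (−1.03 ± 0.24, edgeR adjusted p = 0.00347). Rsad2 was lower at 33.7 and 29.5 CPM than in the control libraries at 52.6 and 46.1 CPM (−0.63 ± 0.12, edgeR adjusted p = 5.62e-04). Slfn1 (−0.61 ± 0.09) and Cxcl10 complete the 8. For 6 of the 8 the class lay above free RNA in every library, and for Slfn1 and Slfn5 below it. Free RNA of Slfn1 moved the same way, 153 and 144 CPM in control and 113 and 111 CPM in knockdown libraries, so its difference cannot be told from background. That of Slfn5 overlapped between the groups, at 48.1 and 39.3 against 42.6 and 38.0 CPM. Ifit1, by contrast, had 132 and 103 CPM in control and 104 and 95.6 CPM in knockdown libraries, and its difference of −0.22 ± 0.09 did not pass (95% interval −0.40 to −0.04).

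In Ccl5-low Cd8 cells no member fell by the call used here, and Cxcl10 alone rose, of 41 tested; 0.34% of all genes were called lower and 2.1% higher. The median was −0.13, against 0.0067 over all genes, with 29 of 41 negative. Several small decreases had an adjusted p under 0.05 without reaching 1.5-fold: with no limit on the fold, 10 members were lower and 1 higher, against 4.01% and 4.8% of all genes. Isg15 had 82.7, 82.8, 76.4 and 58.9 CPM (control libraries first) and a difference of −0.26 ± 0.07. Ifit1 had 32.4 and 36.6 CPM in control and 24.8 and 20.9 CPM in knockdown libraries (−0.54 ± 0.10). Slfn1 had 126 and 127 CPM against 93.5 and 92.1 CPM (−0.38 ± 0.05), but free RNA held more in every library, 153 and 144 CPM in control and 113 and 111 CPM in knockdown libraries. The ratio was 0.733 in these cells and 0.752 in free RNA, so the difference of Slfn1 cannot be told from background. Cxcl10 was also higher in free RNA than in these cells in every library (9.59, 16.5, 14.7 and 20.7 CPM). DESeq2 called 0 members here, with 10 at an unadjusted p under 0.05. The direction of the calls turned under several settings: with no upper limit on genes per cell, with mitochondrial UMIs up to 10% and with a Ccl5 limit of 10 the member called was lower, and with the 30% of cells with the highest doublet scores removed 4 were lower. Myeloid markers summed to 49.0 and 39.5 CPM in control and 214 and 67.3 CPM in knockdown libraries. Leaving out cells with 5 or more myeloid UMIs gave 1 member higher and 1 lower, and the part of myeloid RNA in the remaining values was not tested.

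In Ccl5-low Foxp3 cells the called members were higher, not lower. Of 33 members tested, 4 rose and 0 fell, where 0.711% of all genes were called higher and 0.457% lower; the median was 0.14, against −0.0049 over all genes, and 23 of 33 were positive. Among the IFIT genes 1 of 3 tested was positive (median −0.30), and among the core 3 of 6 (median −0.03), so the direction was not shared within these groups. Ifit1 had 22.6 and 20.8 CPM in control and 38.1 and 75.8 CPM in knockdown libraries (1.37 ± 0.27, edgeR adjusted p = 0.00431). Isg15 went from 82 and 56.8 CPM to 101 and 137 CPM (0.76 ± 0.18, edgeR adjusted p = 0.0174), and Isg20 from 120.1 and 83.8 CPM to 164 and 157 CPM (0.65 ± 0.15, edgeR adjusted p = 0.0153). Cxcl10 was the fourth. Knockdown library 2 was the highest for Ifit1, Isg15 and Cxcl10, and without it 1 member was called; without control library 2 there were 2. DESeq2 called 0 members, with 4 at an unadjusted p under 0.05. Knockdown library 2 also held the most myeloid marker RNA in this class, 303 CPM against 128, 150 and 135 CPM in control libraries 1 and 2 and knockdown library 1, and without cells holding 5 or more myeloid UMIs 3 members were called. The class had 134 to 210 cells per library.

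**Figure D1:**
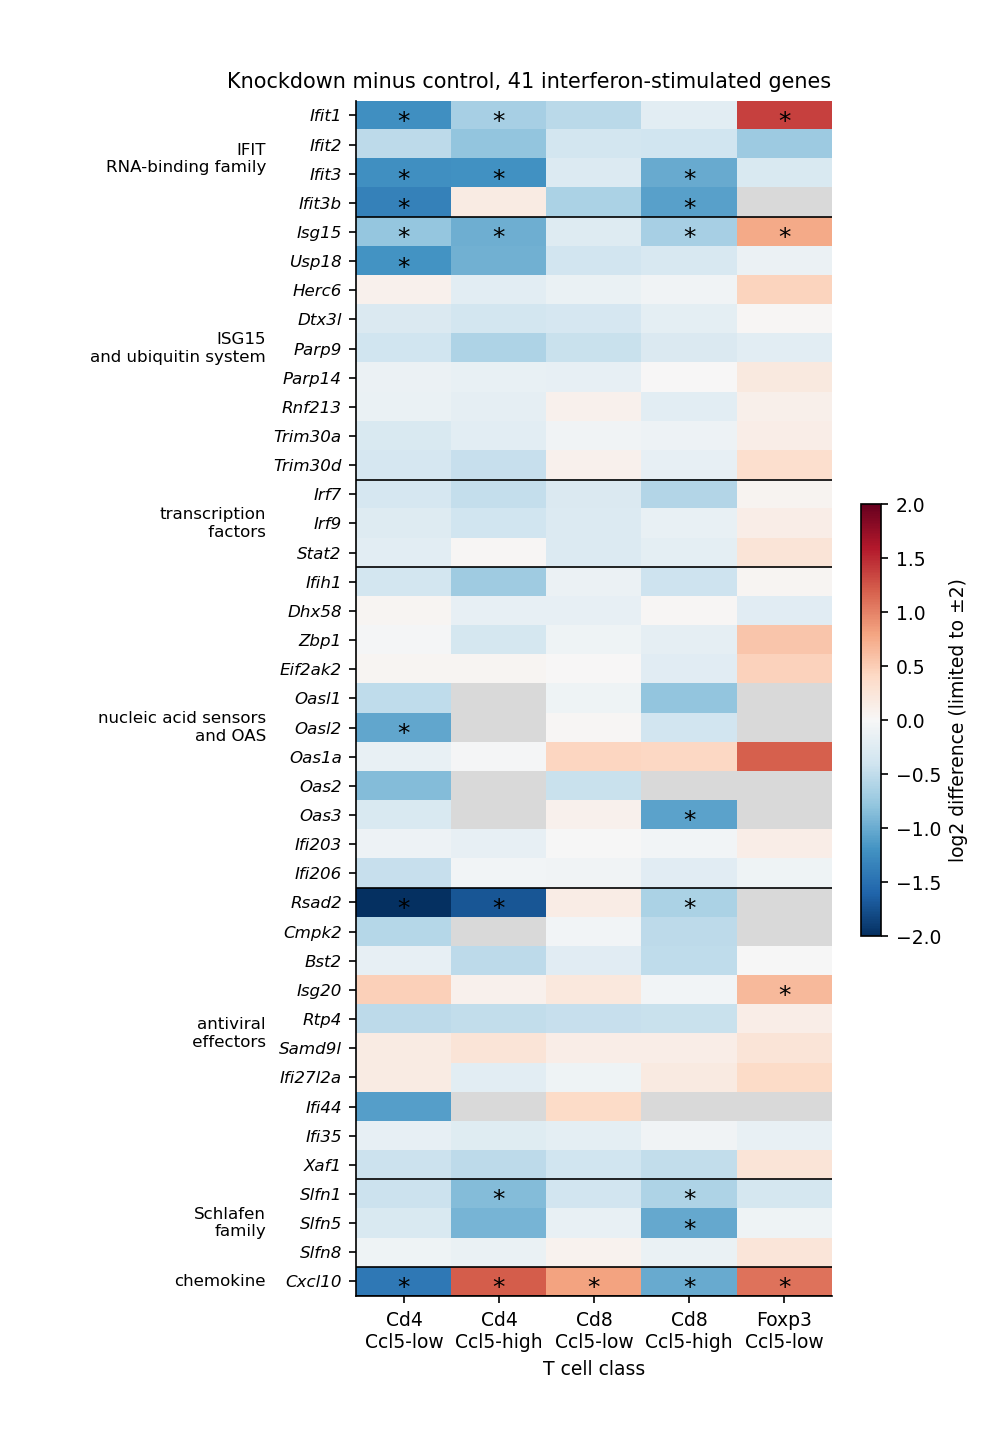
Log2 differences (knockdown minus control) of the 41 members in the 5 tested T cell classes, grouped by role; the color scale ends at 2 in either direction, stars mark calls by edgeR (adjusted p under 0.05 and at least 1.5-fold) and grey marks members not tested. The columns of Cd4 cells and of Ccl5-high Cd8 cells are mostly blue, Rsad2 is darkest in both Cd4 columns, the Foxp3 column is mostly red, and Cxcl10 changes color between columns. In Ccl5-low Cd4 cells Rsad2 entered the test through the control libraries only, so its star there is no support.

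Across the Cd4 and Cd8 classes the called members were of several roles. Of the 35 members tested in all 4 classes, 20 had a negative difference in each, as had 16.9% of the 8700 genes tested in all 4, and 1, the endosomal antiviral gene Samd9l, a positive one in each without a call. Leaving out the call of Rsad2 in Ccl5-low Cd4 cells, Ifit3 and Isg15 were called lower in 3 classes, and 7 members in at least 2. The 7 include Slfn1, whose differences in Ccl5-high Cd4 and Ccl5-high Cd8 cells cannot be told from background. Of all members, 30 were called lower in none. Of the 11412 genes tested in at least 1 class, 0.114% were called lower in at least 3 and 0.351% in at least 2, with no call left out. All classes come from the same 4 libraries, so these are not repeats of one another. Among the uncalled were the transcription factors. Irf7, the factor that amplifies interferon production, had 78.9 and 65.3 CPM in control and 46.4 and 48.1 CPM in knockdown Ccl5-high Cd8 cells, a difference of −0.58 ± 0.10 just under the fold limit. Free RNA held 75.1 and 77.5 CPM of Irf7 in control and 56.2 and 54.2 CPM in knockdown libraries. It moved the same way and lay below the class in control library 1 only, so the difference of Irf7 cannot be told from background. Irf9 differed by −0.15 to −0.39 and Stat2 by 0.03 to −0.27 over these classes. Dtx3l and Parp9, partner genes that overlap at their starts on opposite strands, were also called in none.

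The most abundant members, Ifi27l2a and Ifi203, were called in none of these classes. Ifi27l2a differed by 0.16, −0.21, −0.09 and 0.18 in Ccl5-low and Ccl5-high Cd4 and Ccl5-low and Ccl5-high Cd8 cells, and Ifi203 by −0.01 to −0.16. A set of 10 members was followed on its own (Ifit1, Ifit2, Ifit3, Ifit3b, Isg15, Usp18, Rsad2, Cmpk2, Oasl1 and Irf7, called the core). It was chosen with earlier results of these data known. It holds 6 of the 8 members called lower in Ccl5-low Cd4, 4 of 5 in Ccl5-high Cd4 and 4 of 8 in Ccl5-high Cd8 cells. The 6 include Rsad2, whose call in Ccl5-low Cd4 cells is no support. They also include Usp18, whose difference there cannot be told from background. The contrast of the core with the other members below is thus a description and no support. The summed core was 248 and 227 CPM in control and 135 and 131 CPM in knockdown libraries in Ccl5-low Cd4 cells, 0.560 times the control mean. The ratio was 0.518 in Ccl5-high Cd4, 0.782 in Ccl5-low Cd8 and 0.638 in Ccl5-high Cd8 cells. The other 31 members gave 0.938, 0.825, 0.879 and 0.931. In Ccl5-low Foxp3 cells the core ratio was 1.5 and that of the others 1.22. In free RNA the core stood at 275 and 287 CPM in control and 240 and 273 CPM in knockdown libraries, above its level in Ccl5-low Cd4 and Ccl5-low Cd8 cells of the same library in each case.

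**Figure D2:**
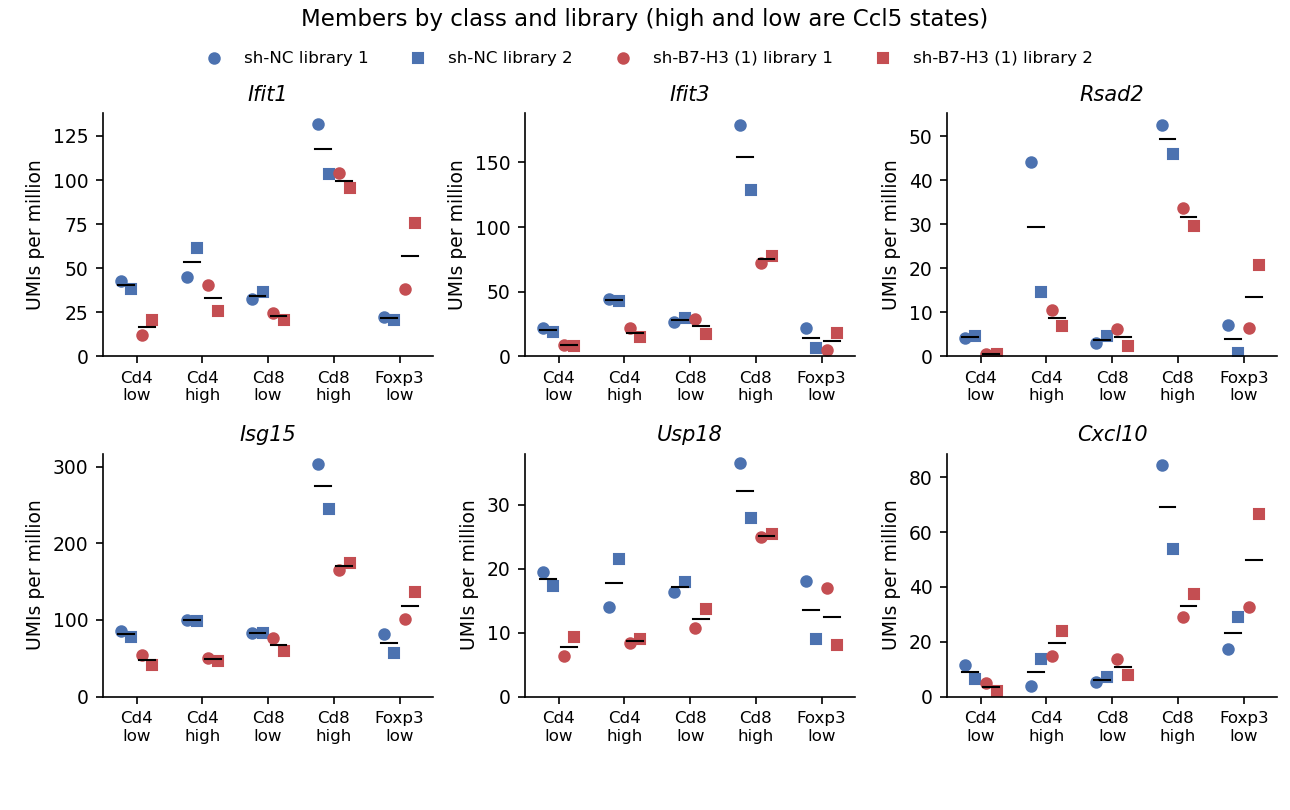
Level of 6 members, Ifit1, Ifit3, Rsad2, Isg15, Usp18 and Cxcl10, in CPM (vertical axes), by T cell class and library; each point is 1 library, and bars are the means of the 2 libraries of a group. Ccl5-high Cd8 cells stand highest for Ifit3 and Isg15, with control libraries at 179 and 129 and at 304 and 244 above knockdown libraries at 72.5 and 77.5 and at 165 and 175.

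Cxcl10, which encodes the CXCR3 ligand that draws T cells, followed no single direction. In Ccl5-low Cd4 cells it had 11.5 and 6.58 CPM in control and 4.97 and 2.10 CPM in knockdown libraries (−1.44 ± 0.32, edgeR adjusted p = 0.00193), and in Ccl5-high Cd8 cells 84.5 and 53.8 CPM against 28.8 and 37.5 CPM (−1.01 ± 0.15, edgeR adjusted p = 1.03e-05). The decrease in Ccl5-low Cd4 cells passed the test in 7 of 16 alternatives and ranged from −2.41 to −0.0064, the last with a Ccl5 limit of 40. In Ccl5-high Cd4 cells it had 4.00 and 13.7 CPM in control and 14.8 and 24 CPM in knockdown libraries (1.21 ± 0.37, edgeR adjusted p = 0.0487). Free RNA held 9.59 and 16.5 CPM in control and 14.7 and 20.7 CPM in knockdown libraries. It lay above this class in both control libraries and moved the same way, so this increase cannot be told from background. In Ccl5-low Cd8 cells Cxcl10 had 5.25 and 7.16 CPM against 13.6 and 8.03 CPM (0.81 ± 0.21, edgeR adjusted p = 0.0170), and in Ccl5-low Foxp3 cells 17.4 and 29.1 CPM against 32.8 and 66.6 CPM (1.09 ± 0.29, edgeR adjusted p = 0.0478). The 3 increases had neighboring control and knockdown values close together, and removing the 30% of cells with the highest doublet scores turned those in Ccl5-low Cd8 and Foxp3 cells to −1.93 and −0.72. Cxcl10 is also made by myeloid cells, whose markers were higher in knockdown libraries in those 3 classes on average, from 55.4 to 81.9, from 44.3 to 141 and from 139 to 219 CPM. In Ccl5-high Cd4 cells 0 of 6 myeloid markers tested were called higher (1.02% of all genes). In Ccl5-low Cd8 cells it was 7 of 8 (2.1%) and in Ccl5-low Foxp3 cells 1 of 6 (0.711%). In Ccl5-low Cd4 cells, where Cxcl10 fell, 2 of the 8 were called higher too (3.65% of all genes) and 7 were positive. In Ccl5-high Cd8 cells, where Cxcl10 also fell, 0 of 7 tested were called (2.2% of all genes higher and 2.39% lower). The part of myeloid RNA in the Cxcl10 differences was not tested.

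Whether the knockdown difference depended on the Ccl5 state was tested as an interaction. In Cd4 cells 1 of 39 members had a different effect, Cxcl10, whose difference was 2.61 ± 0.54 higher in Ccl5-high cells (edgeR adjusted p = 0.00181); 0.307% of all genes were called in that direction and 2.63% in the other. In Cd8 cells 4 members were called, all with the lower value in Ccl5-high cells, where 2.42% of all genes were called in that direction and 0.226% in the other. These were Cxcl10 (−1.84 ± 0.27), Oas3 (−1.18 ± 0.26), Slfn5 (−0.90 ± 0.25) and Ifit3 (−0.74 ± 0.17). For Isg15 the difference between the states was −0.42 ± 0.10 in Cd8 and −0.20 ± 0.16 in Cd4 cells, under the fold limit in both. Without control library 1 edgeR called 0 members in Cd4 cells, with 6 at an unadjusted p under 0.05 (3 were called without control library 2), and without knockdown library 1 the number in Cd8 cells was 1.

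A lower sum over a class can come from fewer responding cells or from less RNA in each, and these cannot be told apart here. To describe how the core UMIs were spread over cells, cells were thinned to 1000 UMIs and called core-positive with at least 3 core UMIs, a share that also falls when each cell holds less RNA. Most cells had none: 77.5 to 91.2% of cells in the Cd4 and Cd8 classes held 0 core UMIs after thinning. In Ccl5-high Cd8 cells 49 of 409 (12%, 95% Clopper-Pearson interval 9.0 to 15.5%) and 37 of 451 (8.2%, 5.84 to 11.1%) control cells were core-positive, against 46 of 785 (5.86%, 4.32 to 7.74%) and 52 of 996 (5.22%, 3.92 to 6.79%) knockdown cells. Those control cells carried 87.8 and 81.3% of the core UMIs of their class, and those knockdown cells 70.6 and 71.8%. Both control shares lay above both knockdown shares. The share with at least 1 core UMI was 22.5 and 20.4% in control and 19.4 and 18.5% in knockdown libraries, and that with at least 10 was 3.67 and 2.44% against 1.53 and 1.20%. The intervals cover counting error only.

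The same order held in the other Cd4 and Cd8 classes. The core was chosen with earlier results of these data known and holds many of the called members. Its shares, also those at the same class mix below, are thus a description and no further support. In Ccl5-low Cd4 cells the share was 2.14 ± 0.10% (SD, n = 2) in control and 0.627 ± 0.22% in knockdown libraries, and in Ccl5-high Cd4 cells 3.74 ± 0.41% and 1.01 ± 0.70%. Ccl5-low Cd8 cells gave 1.76 ± 0.44% and 1.01 ± 0.16%. The groups did not overlap in these classes, but with 2 libraries against 2 the two-sided exact permutation test cannot go below p = 0.333, the value it gave for each. In Ccl5-low Foxp3 cells 4 of 210 and 0 of 190 control cells (a share of up to 1.92% for the latter) and 2 of 142 and 4 of 134 knockdown cells were core-positive, and the groups overlapped. There is no class here that cannot respond to interferon and could serve as a blank.

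In core-positive Ccl5-high Cd8 cells the 31 members outside the core summed to 15429 and 14648 CPM in control and 12700 and 16516 CPM in knockdown libraries, while the remaining cells of the class had 2496 to 2844 CPM. The groups overlapped, but these cells were chosen by their core UMIs, so the values are a description and do not measure the RNA per responding cell. In Ccl5-low Cd4 cells the 40 and 31 core-positive control cells had 123 and 4.02 CPM of myeloid markers, whereas the 4 and 3 core-positive knockdown cells had 7472 and 4571 CPM; whether those few are T cells was not tested.

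**Figure D3:**
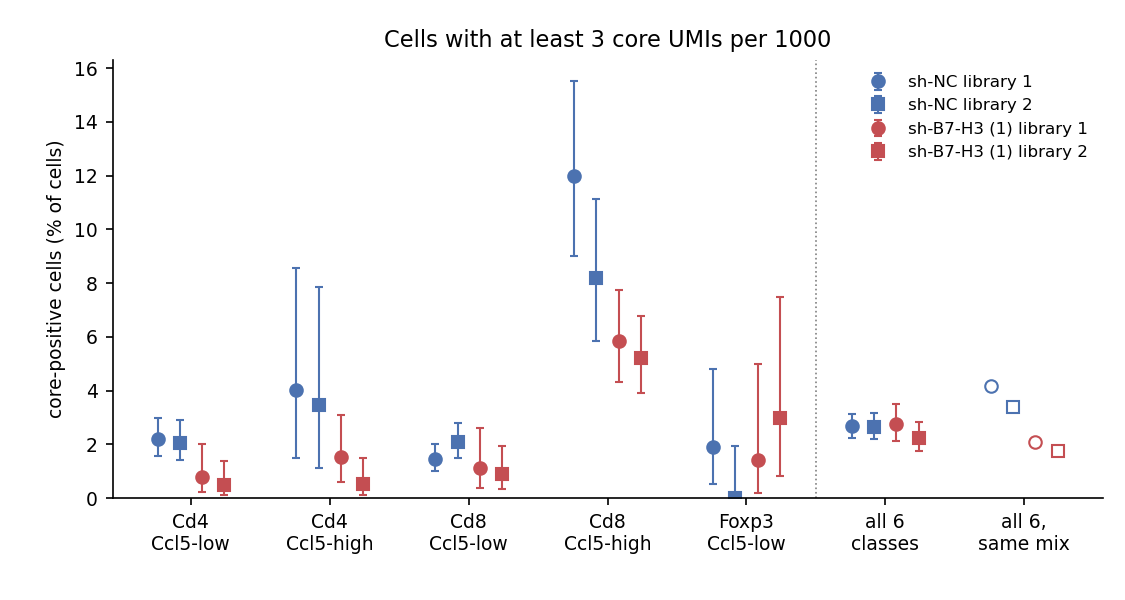
Share of core-positive cells (percent of cells with at least 3 core UMIs after thinning to 1000 UMIs, vertical axis) by class and library, with 95% Clopper-Pearson intervals, for all 6 classes together, and for the same class mix in every library. Control libraries lie above knockdown libraries in the Cd4 and Cd8 classes and at the same mix (mean 3.79 against 1.92%), but not over all cells as found (2.66 against 2.49%). The core holds many of the called members, so the shares are no further support for those calls.

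Over all classed cells, whose class mix differed between the groups, the core-positive shares overlapped. The share was 2.66% in each control library and 2.75 and 2.24% in knockdown libraries, a ratio of 0.938 (exact permutation p = 1.00). That ratio was 0.507 with the 30% of cells with the highest doublet scores removed and 1.14 when cells were thinned to 500 UMIs. When each library was given the mean class mix of the 4 libraries, a calculation added after the data were seen, the shares were 4.18 and 3.40% in control and 2.10 and 1.74% in knockdown libraries, a ratio of 0.506. The sum of all members was 1.14 times control as found and 0.893 times at the same mix, and that of the core 0.976 and 0.672 times. Rsad2 went from a ratio of 1.63 to 0.614, and Ifit1 from 1.13 to 0.720. As found, 21 of 41 members had a ratio above 1. At the same mix 4 did, namely Oas1a, Samd9l, Isg20 and Ifi27l2a, so that 17 members changed side. Isg20 went from 2.57 to 1.05.

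**Figure D4:**
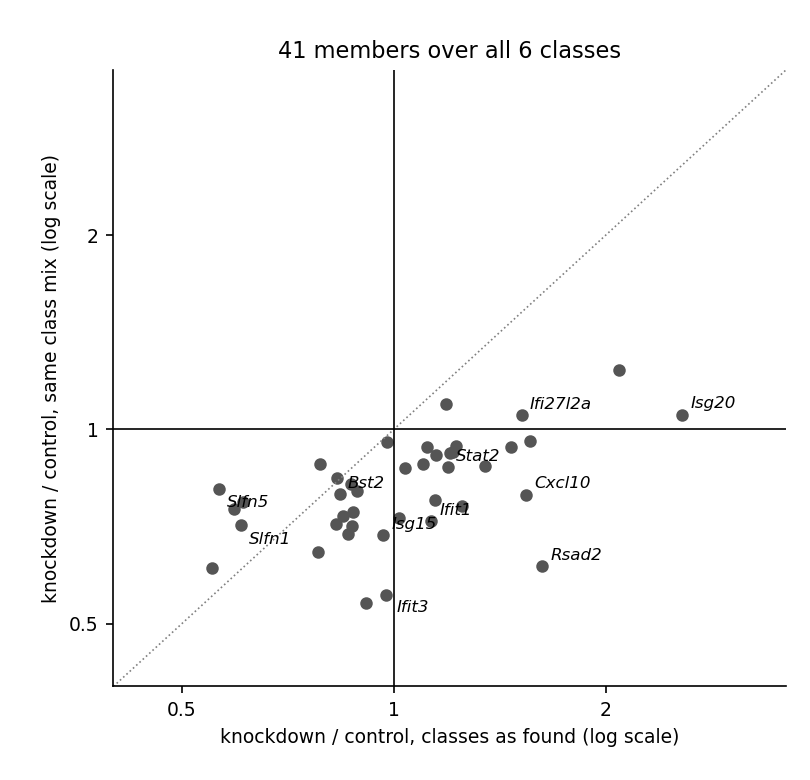
Ratio of the mean CPM in knockdown over control libraries for each of the 41 members over all 6 classes, with the classes as found (horizontal, log scale) and with the same class mix in every library (vertical, log scale); each point is a member, and the dotted line marks equal ratios. Most points to the right of 1 lie below 1 on the vertical axis, as for Rsad2 (1.63 and 0.614).

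Tetherin was measured a second time as surface protein. Bst2 RNA was lower in Ccl5-high Cd8 cells of knockdown libraries, at 197 and 198 CPM against 309.6 and 259.8 CPM (−0.50 ± 0.06, edgeR adjusted p = 1.15e-06), and in Ccl5-high Cd4 cells (−0.52 ± 0.12), both under the fold limit. The CD317 tag made up 0.124 ± 0.0027% (SD, n = 2) of tag UMIs in classed control cells and 0.135 ± 0.0019% in classed knockdown cells, a ratio of 1.09 (exact permutation p = 0.333, the smallest possible). Isotype control tags, which bind no mouse antigen, differed more, 0.275 against 0.378%, a ratio of 1.37 (exact permutation p = 0.333). Counted per cell, CD317 went from 6.18 ± 0.56 to 5.79 ± 1.21 UMIs (0.936 times), with overlap between the groups. In the 5 tested classes the ratio of the shares was 1.08 to 1.30 for CD317 and 1.33 to 1.62 for the isotype controls, whereas counted per cell CD317 was 0.858 to 0.963 times and an isotype tag 1.12 to 1.19 times control, with overlap between the groups in each. The direction for CD317 thus depended on how the tag was counted, and no counterpart of the lower Bst2 RNA can be read from it.

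**Figure D5:**
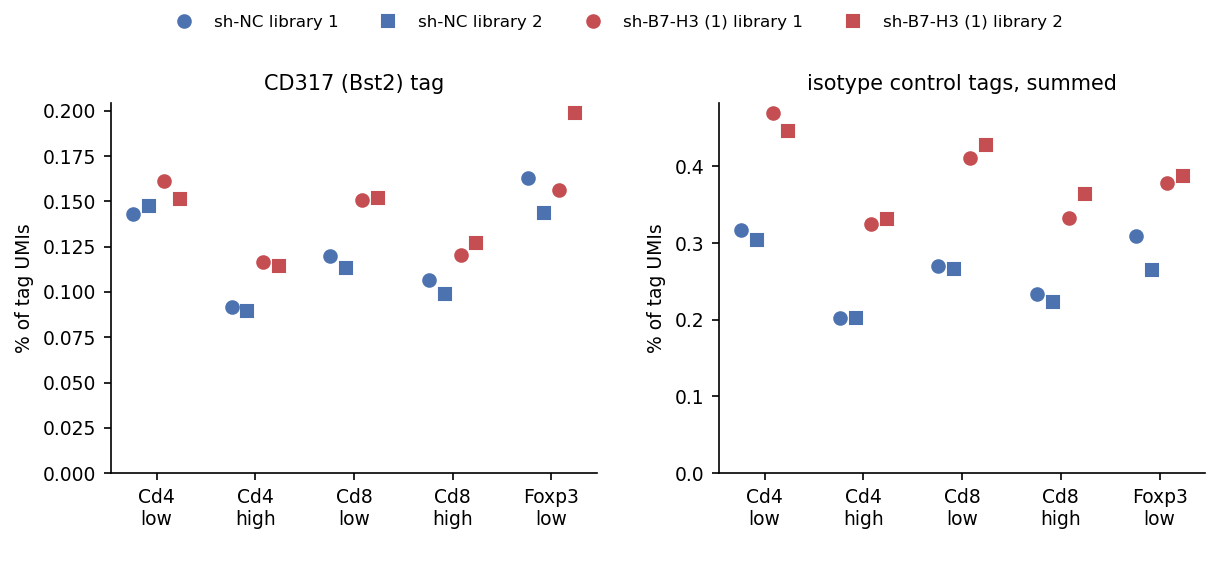
CD317 tag and the sum of isotype control tags, as percent of all tag UMIs of a class (vertical axes), by T cell class and library; each point is 1 library. Both are higher in knockdown libraries over all classed cells (0.124 against 0.135% for CD317 and 0.275 against 0.378% for isotype controls).

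Other genes of the pathway were counted from lists. Of 7 receptor and kinase genes, 0 to 2 were called lower and 0 or 1 higher in each class. In Ccl5-high Cd8 cells 2 of the 6 tested were called lower, against 2.39% of all genes. Ifnar1 was called in none, with differences of −0.20 to 0.15, and Ifnar2 only in Ccl5-high Cd8 cells, from 72.6 and 79.4 CPM to 46.4 and 50.3 CPM (−0.63 ± 0.09). Irf1, a factor induced mainly by interferon-gamma, was called in none (−0.26 to −0.57 in the Cd4 and Cd8 classes, −0.30 in Foxp3 cells).

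Of 18 ligand genes of the interferons, Ifng was the only one with enough counts for a test, which says nothing of interferon made by other cells. Ifng was called higher in Ccl5-low Cd4 cells (1.46 ± 0.14), from 11 and 15.4 CPM to 37.6 and 34.2 CPM, and in Ccl5-low Cd8 cells (3.08 ± 0.32), from 0.726 and 1.62 CPM to 12.1 and 7.22 CPM. In free RNA Ifng stood at 18.9 and 22.1 CPM in control and 83.4 and 70.5 CPM in knockdown libraries, above each of these values in its own library, so the difference in these Ccl5-low classes cannot be told from background. Ccl5-high Cd8 cells had 127 and 145 CPM in control and 201 and 193 CPM in knockdown libraries. These lay above free RNA in every library, but the difference of 0.55 was not called. In Ccl5-high Cd4 cells the groups overlapped, at 421 and 420 against 461 and 346 CPM. Of the 20 targets of interferon-gamma, 17 to 19 were tested, and 0 were called higher in any class. In Ccl5-low Cd4 cells 2 of 19 were called lower, against 0.635% of all genes, in Ccl5-high Cd4 cells 1 of 17, against 0.943%, and in the other 3 classes 0. The differences were negative for 15 of 19 in Ccl5-low Cd4, 14 of 17 in Ccl5-high Cd4, 18 of 19 in Ccl5-low Cd8 and 15 of 19 in Ccl5-high Cd8 cells, with medians of −0.11, −0.19, −0.33 and −0.16, and their summed level was 0.764 to 0.866 times control in these classes. In Foxp3 cells 12 of 17 were positive, with a median of 0.12 and a summed level of 1.13 times control. Of 6 inhibitor genes, 0 to 2 were called lower in each class, with 2 in Ccl5-high Cd8 cells, against 2.39% of all genes. In Ccl5-low Cd4 and Ccl5-low Cd8 cells 1 was called lower, against 0.635% and 0.34% of all genes. Among the inhibitors Socs3 was called lower in 3 classes, by 0.66 in Ccl5-low Cd4, by 0.90 in Ccl5-low Cd8 and by 0.76 in Ccl5-high Cd8 cells (log2). These differences were not set beside free RNA here, so the part of background in them was not tested.

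The median knockdown difference was set beside the response element in the promoter window. In Ccl5-high Cd8 cells the 16 members with it had a median difference of −0.36 and the 16 without it −0.30, and in Ccl5-low Cd4 cells the 16 with it had −0.33 and the 17 without it −0.34. The medians were −0.21 and −0.37 in Ccl5-high Cd4, −0.07 and −0.11 in Ccl5-low Cd8 and 0.24 and 0.10 in Foxp3 cells. Calls fell mostly on those with it: 7 against 1 in Ccl5-high Cd8, 6 against 1 in Ccl5-low Cd4 (Rsad2 among the 6), 5 against 1 in Ccl5-high Cd4, 1 against 0 in Ccl5-low Cd8 and 3 against 1 in Foxp3 cells. The difference between these counts was not tested. Ifit1 and Isg15, whose windows are printed above, are among the called in Ccl5-low Cd4 cells; Ifi203 and Ifi206 hold the element and were called for the knockdown in no class.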

How the data were processed

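The count values are UMIs per gene and cell as deposited: the authors aligned the reads to mm10 with Cell Ranger and analysed them in Seurat 4.0.0 per the submitters' processing notes. Each of the 4 libraries holds 32285 genes and 198 tags. Cells with 200 to 3000 genes and at most 5% mitochondrial UMIs were kept. Likely doublets were scored against simulated ones (2 per cell, 30 components of 2000 variable genes) and removed at 0.8% per 1000 called cells, 5.63 to 9.68% of cells. Between 17 and 35 barcodes were shared by any 2 libraries.

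Cells with at least 1 UMI of the Cd3 genes were classed as Cd4 (at least 1 Cd4 UMI, under 3 of Cd8a and Cd8b1, 0 Foxp3), Foxp3 (the same with at least 1 Foxp3 UMI) or Cd8 (at least 3 of Cd8a and Cd8b1, 0 Cd4 and 0 Foxp3). UMIs were summed per class and library, and all genes that passed filterByExpr were tested with edgeR 4.0.16 (quasi-likelihood, TMM, R 4.3.3) and Benjamini-Hochberg adjustment over all of them. A gene was called at an adjusted p under 0.05 and at least 1.5-fold, in classes with at least 50 cells in each library. For the Ccl5 state the library was a term, and the interaction added the group. DESeq2 1.42.0 was an alternative, and so were other size factors, filters, doublet and Ccl5 limits, cell subsets, a replicate block and leaving out each library. The fit was tested on simulated data. Python 3.11.15, numpy 2.4.6, scipy 1.17.1 and scikit-learn 1.9.0 were used.

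Some genes of these lists, and 1 planned subset of cells that rests on them, are not reported here. The members and lists were chosen with earlier results of these data known. Values in every library are given for up to 4 called members per class with the largest log2 difference, no overlap and a mean of at least 10 CPM, for the 5 most abundant members, and for Bst2, the transcription factors and Cxcl10; other members with values, such as Rsad2 in Ccl5-low Cd4 cells, were named after their values were seen. Libraries were grouped by their labels, which give no batch or date. Precision follows the depth: the tested class sums held at least 134 cells per library. Clopper-Pearson intervals cover counting error only, while the interval of Ifit1 in Ccl5-high Cd8 cells comes from the edgeR fit over libraries.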

Additional observations from a re-analysis of the deposited data

Results flagged for a closer look

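For 5 results the knockdown difference in Ccl5-high cells differed from that in Ccl5-low cells by the interaction test (edgeR, adjusted p under 0.05 and at least 1.5-fold). Cxcl10 gave 2.61 in Cd4 cells, where the log2 difference was −1.44 in Ccl5-low and 1.21 in Ccl5-high cells (edgeR adjusted p = 0.00181). The increase in Ccl5-high Cd4 cells cannot be told from background. In Cd8 cells Cxcl10 gave −1.84, with 0.81 in Ccl5-low and −1.01 in Ccl5-high cells (edgeR adjusted p = 5.30e-07). Oas3 gave −1.18 in Cd8 cells (0.09 and −1.07, edgeR adjusted p = 0.00153). Slfn5 gave −0.90 (−0.14 and −1.03, edgeR adjusted p = 0.0174) and Ifit3 −0.74 (−0.28 and −1.01, edgeR adjusted p = 0.00166). Among 15 alternatives the call was kept in 9 for Cxcl10 in Cd4 cells, and in Cd8 cells in 13 for Cxcl10, 10 for Oas3, 4 for Slfn5 and 8 for Ifit3. DESeq2 called 0 members for either interaction, with 2 members in Cd4 and 6 in Cd8 cells at an unadjusted p under 0.05.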

How the results depend on the processing

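For the alternatives, the share of all genes called is given above only for no fold limit in Ccl5-low Cd4 and Ccl5-low Cd8 cells. A change in a count under an alternative, here or above, is thus no result about the members alone. The order of values below is Ccl5-low Cd4, Ccl5-high Cd4, Ccl5-low Cd8, Ccl5-high Cd8 and Ccl5-low Foxp3 cells, where 8, 6, 1, 8 and 4 members were called. With no fold limit 21, 9, 11, 14 and 5 were called, and with a limit of 2-fold 7, 3, 0, 5 and 2 (edgeR, with 19 at an unadjusted p under 0.05 behind the 0). DESeq2 called 5, 0, 0, 6 and 0. At an unadjusted p under 0.05 it gave 9, 10 and 4 for the 3 counts of 0. In Ccl5-low Cd8 cells the direction of the calls turned: no upper gene limit gave 1 member lower, mitochondrial UMIs up to 10% gave 1 lower, a Ccl5 limit of 10 gave 1 lower, and removal of the 30% highest doublet scores gave 4 lower. There a Ccl5 limit of 40 gave 3 members, and leaving out cells with 5 or more myeloid UMIs gave 2. No upper gene limit gave 5 in Ccl5-low Cd4 cells. Removal of the 30% highest doublet scores gave 14 in Ccl5-high Cd8 cells and 0 in Foxp3 cells (7 at an unadjusted p under 0.05), where no UMI of the other lineage and a Ccl5 limit of 10 each gave 2. Between the Ccl5 states of Cd4 cells the count was 16, and 9 with a limit of 2-fold.

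For the interaction in Cd4 cells (1 member called), no fold limit gave 2, DESeq2 0, no upper gene limit 0, removal of the 30% highest doublet scores 0 (2, 6 and 4 at an unadjusted p under 0.05), and a Ccl5 limit of 40 gave 1 in the other direction. In Cd8 cells (4 called) these were 7 with no fold limit, 2 with a limit of 2-fold, 0 with DESeq2, 1 with no upper gene limit, 2 with mitochondrial UMIs up to 10% and 0 with the 30% removed (6 and 12 for the counts of 0). With the 30% removed Cxcl10 reversed to −1.93 in Ccl5-low Cd8 cells, to −0.72 in Foxp3 cells and to 0.63 for the Cd8 interaction. The core-positive ratio over all cells, 0.938, became 1.14 when thinned to 500 UMIs, 1.11 with 5 core UMIs, 0.507 with the 30% removed and 0.506 at the same class mix, which was chosen after seeing the data. The CD317 ratio, 1.09, became 0.936 per cell. The 48 named calls pool those within classes, those between Ccl5 states and the interactions. Of these 45 kept their direction under every alternative run, and 20 passed the test under every one. Most of the 20 were between Ccl5 states, and no interaction was among them. Those for the knockdown were Ifit1, Ifit3 and Usp18 in Ccl5-low Cd4 and Ifit3, Ifit3b and Oas3 in Ccl5-high Cd8 cells. No alternative dealt with free RNA. The difference of Usp18 in Ccl5-low Cd4 cells cannot be told from background, and Ifit3 there lay below free RNA in every library. The causes of the moves between settings were not tested.

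Leaving out 1 library gave 6 to 9, 3 to 11, 1 to 3, 5 to 11 and 1 to 6 members in the classes, 13 to 15 and 21 to 24 for the state in Cd4 and Cd8 cells, 0 to 3 and 1 to 5 for the interactions, 0.841 to 1.04 for the core-positive ratio and 1.07 to 1.11 for CD317. Such a fit leaves 1 library in a group, assumed to vary like the other group. With the replicate block 8, 6, 1, 8 and 4 members were called, as without it. Same-numbered libraries did not deviate together in RNA (r of −0.017 to 0.0441 over genes), which cannot exclude a shared batch. Over all classed cells library 1 had more CD317 UMIs per cell in both groups, 6.58 against 5.79 in control and 6.64 against 4.93 in knockdown. An isotype tag gave 1.62 against 1.42 and 2.04 against 1.54. Whether same-numbered libraries share a batch was not tested. Low members were limited by depth: 8 had too few UMIs for a test in Foxp3 cells.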
